A study of Homo sapiens with 24 samples.

Results

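KB05 and KB02, small molecules known here by code name, were compared at matched dose and time in 22Rv1 cells, an established line derived from a human prostate tumour. The comparison uses 6 of the 24 samples of the series, namely 3 libraries of cells given KB05 and 3 of cells given KB02, each compound at 200 µM, assigned by the treatment their labels name. Cells were exposed for 1 h and then kept for 2 h in fresh medium, which the labels count as a time point of 3 h. A further 3 libraries of the same time point received vehicle (DMSO) alone. They give the starting level of each gene and enter the same fit, and 15 samples taken at 8 h were not analysed here. All 9 libraries are of unmodified cells of 1 line, with no genetic alteration named in the labels. The table lists 60232 genes, of which 18379 had enough counts to be tested, and all 18379 are described here. Levels are given as CPM, counts per 1000000 at equal effective library size. A difference is the log2 fold change of KB05 over KB02, so that a positive value is higher with KB05. A gene was called where its adjusted p was under 0.05. The figure after ± is a standard error (SE) for a log2 fold change and a standard deviation (SD) for a level.

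Cells meet reactive or protein-damaging molecules with a small set of dedicated transcription factors. HSF1, which chaperones hold inactive in unstressed cells, induces the heat shock proteins that refold damaged proteins. NRF2, freed from its inhibitor KEAP1 when cysteines are modified, induces antioxidant and detoxifying enzymes, and MTF1, a sensor of free zinc, induces the metallothioneins that bind it. MAP kinase signals reach the immediate-early genes, among them the EGR, FOS and NR4A families, within minutes and without new protein synthesis. Luminal prostate cells secrete proteases such as KLK3, the prostate-specific antigen.

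Library totals were 17216861 to 21900671 counts for KB02, 15507130 to 19617330 for KB05 and 17565251 to 19830410 for DMSO. A count of 3 in a library corresponded to 0.129 to 0.195 CPM. The cells carried the markers of their label: in DMSO, KLK3 was at 47.3 to 54.2 CPM and the luminal keratin KRT8 at 942 to 1156 CPM. Of 22 markers of other cell types, 13 passed the filter on low counts. Their summed level was 582.7 to 614.3 CPM with KB02 and 969 to 986.8 CPM with KB05, most of it from the liver marker ALB and the neuroendocrine marker SYP, and the leukocyte marker PTPRC was at 6.84 to 11.9 and 11.1 to 12.1 CPM. Transcripts of mitochondrially encoded proteins took 11.2 to 12.3% of counts with KB02 and 9.2 to 10.1% with KB05, and mitochondrial ribosomal RNA took 3.74 to 3.84% and 4.29 to 4.74%. What part these shares have in the results below was not tested.

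KB05 stood above KB02 at the inducible chaperone HSPA6 (11-fold), the haem-degrading enzyme HMOX1 (10.3-fold), the nuclear receptor NR4A1 (9.97-fold) and the replication-dependent histones, and below it at the amine oxidase AOC3 (47.7-fold), the mRNA export receptor NXF1 (7.66-fold) and the splicing kinase CLK1 (3.39-fold). Of the 18379 genes, 7346 were called, which is 40.0% of those tested. Among them 3998 (21.8%) were higher and 3348 (18.2%) lower with KB05. Differences of at least 2-fold were called for 756 genes higher (4.11%) and 962 lower (5.23%), and of at least 4-fold for 179 and 307. With a minimum count of 50 the 2-fold counts were 358 and 535. For 7056 of the 7346 called genes, the 3 KB05 libraries lay wholly above or wholly below the 3 KB02 libraries, and 50.3% of all genes tested had no overlap (27.6% with KB05 above, 22.7% with KB05 below). Against DMSO, 8470 genes were called for KB02 (46.1%), 4191 higher (22.8%) and 4279 lower (23.3%). For KB05 they were 7321 (39.8%), 3434 higher (18.7%) and 3887 lower (21.1%). Both of these comparisons use the same DMSO libraries. Counts of list members below are to be read against these shares of all genes.

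The balance of directions depends on how the libraries are scaled. With TMM factors 54.4% of calls were higher with KB05 and the median of all genes lay at a log2 fold change of 0.056, while with library size alone 37.4% were higher and the median was -0.058. Small differences near these medians are therefore not read for their sign.

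**Figure D1:**
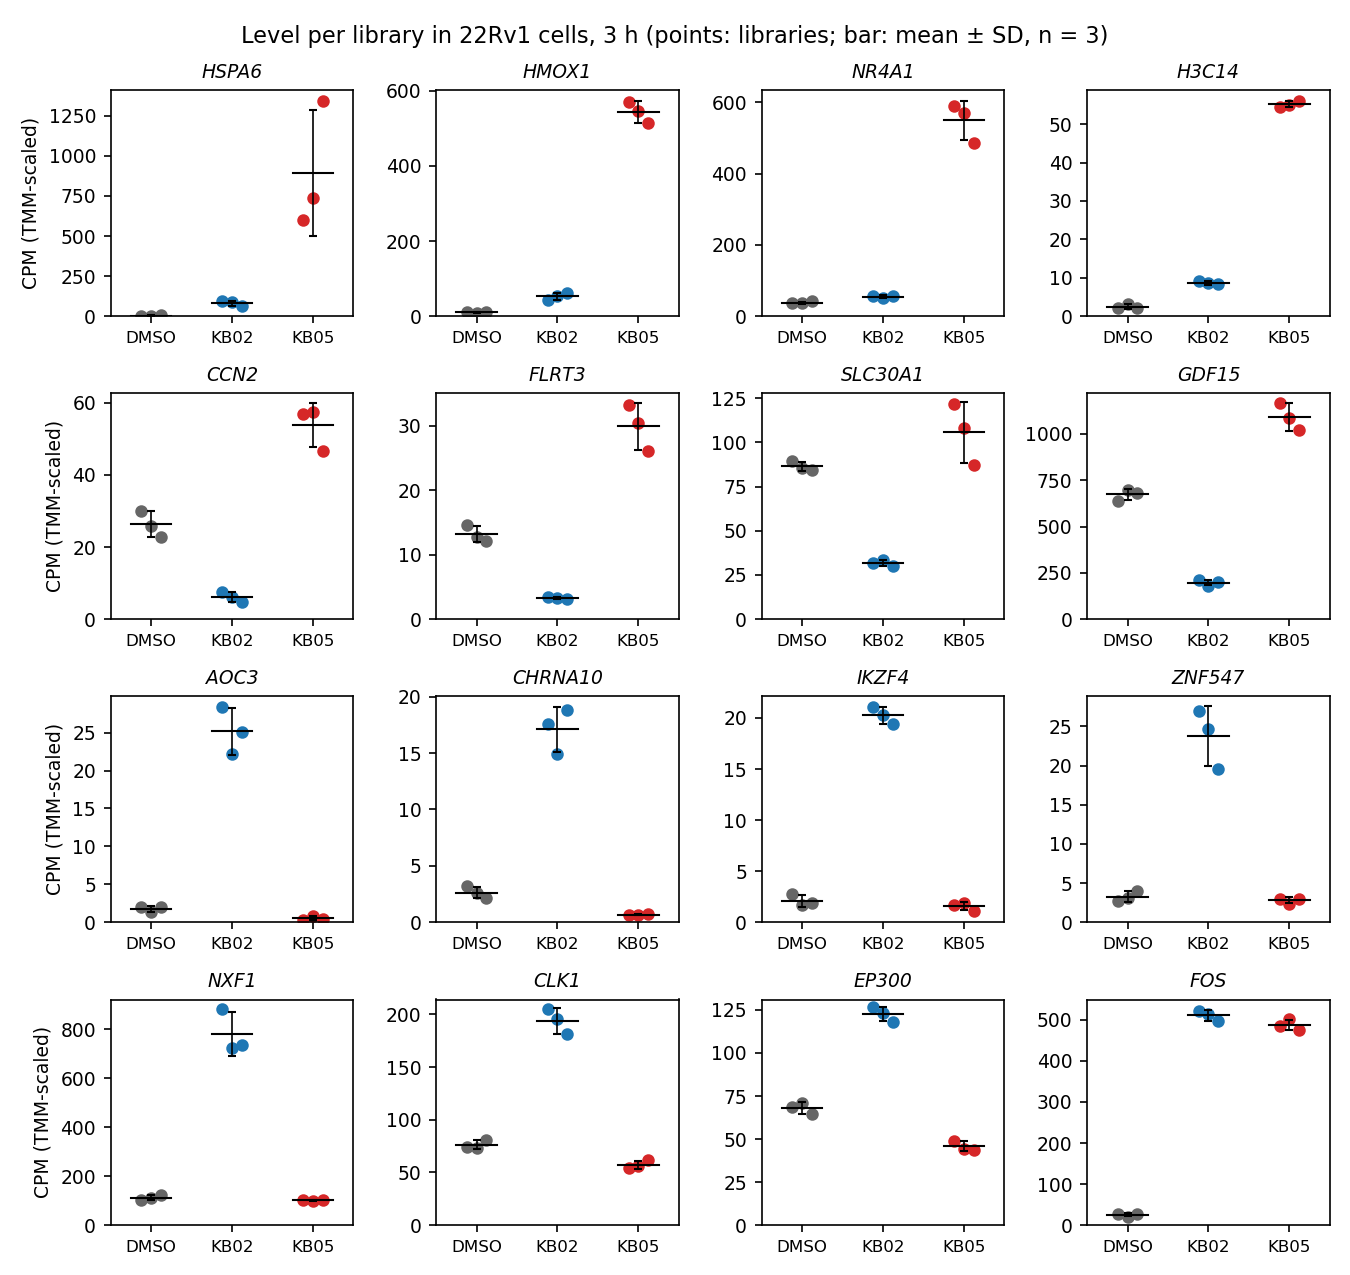
Levels of 16 genes in each of the 9 libraries, in CPM on linear axes that start at 0 and differ between panels; points are libraries and bars the mean ± SD of 3. In the upper panels KB05 stands above KB02 (HMOX1 at 515 to 571 against 43 to 62.1 CPM), in the lower ones KB02 stands above KB05 (NXF1 at 721 to 882 against 99.9 to 103 CPM), and FOS has like levels with both.

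Many heat shock genes were raised by both compounds, and several of the most inducible were raised further by KB05. Of 32 chaperone and proteostasis genes measured, 16 were higher with KB05 and 8 lower, which is 50% and 25% against 21.8% and 18.2% of all genes, with a median log2 fold change of 0.336 against 0.056 for all genes. From DMSO, 28 of the 32 were called higher with KB02 and 30 with KB05, and none was called lower with either. HSPA6, a strictly stress-inducible HSP70 chaperone (ENSG00000173110.8, chromosome 1, 161524540 to 161526910 on GRCh38), was at 4.02, 3.05 and 5.29 CPM with DMSO, 91.6, 87.5 and 62.8 CPM with KB02 and 599, 737 and 1341 CPM with KB05. All KB05 libraries lay above all KB02 libraries, which lay above all DMSO libraries, although the KB05 libraries themselves spanned more than a 2-fold range. The difference between the compounds was 3.46 ± 0.36 (SE; adjusted p = 0.000356), with a 95% interval of 2.58 to 4.35.

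SERPINH1, the collagen chaperone of the endoplasmic reticulum, was called with KB05 alone against DMSO. It was at 55.7, 51.9 and 56.8 CPM with DMSO, 59.8, 56.3 and 58 CPM with KB02 and 194, 209 and 303 CPM with KB05. KB02 libraries overlapped with DMSO here, and KB05 libraries lay above both, with a difference of 2.02 ± 0.17 (SE; adjusted p = 3.06e-05). HSPA1A, the main inducible HSP70, was at 1457, 1508 and 1325 CPM with KB02 and 4202, 5106 and 6426 CPM with KB05, a difference of 1.87 ± 0.19 (SE; adjusted p = 0.000157). HSPA1B, its near-identical neighbour, had 1.40 ± 0.10, and the split of reads between these copies is an estimate. The HSP40 co-chaperone DNAJB1 (0.94 ± 0.10) and the small heat shock protein HSPB1 (0.97 ± 0.07) were also higher with KB05. The opposite order held for HSPH1, a nucleotide exchange factor of HSP70, which was at 455, 461 and 495 CPM with KB02 and 320.0, 349 and 392 CPM with KB05 (-0.41 ± 0.07), and for the HSP70-HSP90 adaptor STIP1 (-0.43 ± 0.07), so members of the list moved both ways. ZFAND2A, which binds the proteasome under stress, was not called and its log2 fold change was 0.00 with an interval of -0.47 to 0.47.

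The promoters of the chaperone genes with the largest differences are shown for the heat shock element, the site at which HSF1 binds. In the 250 bases before the RefSeq start (GRCh38.p14), the letters GAANNTTC, which read the same on both strands, occurred in 37.9% of the 29 promoters of the list that could be matched and in 4.21% of the 12508 matched promoters of tested genes. A run of 3 alternating units (GAANNTTC followed by NNGAA, or TTCNN followed by GAANNTTC) occurred in 17.2% and 0.288%. Among promoters of genes at least 2-fold higher with KB05 the first pattern occurred in 6.74%, and among those at least 2-fold lower in 4.72%. The capitals below mark GAANNTTC in the promoters of HSPA6 (chr1:161524290-161524539, plus strand), HSPA1A (chr6:31815293-31815542, plus strand) and SERPINH1 (chr11:75562003-75562252, plus strand), each written 5′ to 3′. In HSPA6 and SERPINH1 a marked match lies inside a run of 3 units, 69 and 71 bases before the start.
HSPA6: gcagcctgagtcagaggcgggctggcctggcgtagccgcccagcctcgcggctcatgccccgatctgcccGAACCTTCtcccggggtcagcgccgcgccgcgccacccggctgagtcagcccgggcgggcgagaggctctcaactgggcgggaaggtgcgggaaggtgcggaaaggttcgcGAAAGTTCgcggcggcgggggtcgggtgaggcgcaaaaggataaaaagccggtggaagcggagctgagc
HSPA1A: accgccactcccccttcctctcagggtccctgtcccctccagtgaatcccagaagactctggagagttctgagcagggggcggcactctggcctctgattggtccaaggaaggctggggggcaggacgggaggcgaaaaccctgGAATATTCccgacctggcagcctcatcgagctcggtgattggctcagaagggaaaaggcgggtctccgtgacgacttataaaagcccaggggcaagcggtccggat
SERPINH1: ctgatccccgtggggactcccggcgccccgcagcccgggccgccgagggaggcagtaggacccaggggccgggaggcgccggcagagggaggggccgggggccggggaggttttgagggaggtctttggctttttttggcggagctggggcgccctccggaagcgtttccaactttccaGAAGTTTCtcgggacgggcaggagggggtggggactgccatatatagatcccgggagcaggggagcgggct

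Genes of the NRF2 response included large differences in both directions. Of 35 measured, 12 were higher (34.3%, against 21.8% of all genes) and 7 lower with KB05 (20%, against 18.2%), and the median of 0.108 turned sign under other settings. HMOX1, which breaks down haem and also answers to HSF1 and other factors (ENSG00000100292.18, chromosome 22, 35380361 to 35394214), was at 9.84, 8.16 and 11.3 CPM with DMSO, 43, 53.1 and 62.1 CPM with KB02 and 571, 547 and 515 CPM with KB05. The groups did not overlap, and KB05 exceeded KB02 by 3.37 ± 0.13 (SE; adjusted p = 7.24e-10). AKR1C3, an aldo-keto reductase that also makes androgens (0.67 ± 0.08), thioredoxin TXN (0.54 ± 0.08) and peroxiredoxin PRDX1 (0.44 ± 0.07) were higher with KB05 too. All of these 3 fell from DMSO with KB02, and PRDX1 changed by -0.51 with KB02 and by -0.07 with KB05. SLC7A11, the cystine importer that feeds glutathione synthesis, went the other way. It was at 40.8, 34.3 and 32.9 CPM with DMSO, 66.1, 58.8 and 69.2 CPM with KB02 and 27.8, 25.2 and 24.8 CPM with KB05. Every KB02 library lay above DMSO and every KB05 library below it, a difference of -1.32 ± 0.09 (SE; adjusted p = 4.97e-13). OSGIN1, a growth inhibitor induced by oxidants, was lower with KB05 (-0.98 ± 0.10), as was GCLC, the catalytic subunit of glutamate-cysteine ligase (-0.42 ± 0.08). For its partner subunit GCLM the difference was 0.08 ± 0.11 with an interval of -0.14 to 0.30, and for thioredoxin reductase TXNRD1 it was -0.13 ± 0.08, neither called. In the thioredoxin system, the inhibitor TXNIP was at 225, 264 and 262 CPM with KB02 and 122, 113 and 97.8 CPM with KB05 (-1.18 ± 0.08), and its relative ARRDC4 was lower as well (-1.65 ± 0.10). Both rose from DMSO with KB02 and fell with KB05.

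Immediate-early transcription factors were mostly higher with KB05. Of 16 EGR and NR4A factors and their partners, 13 were higher (81.2%, against 21.8% of all genes) and none lower (against 18.2%), with a median of 0.759. NR4A1, an orphan nuclear receptor induced by growth signals and stress (ENSG00000123358.20, chromosome 12, 52022832 to 52059507), was at 35.6, 36.8 and 41.5 CPM with DMSO, 57.3, 51.5 and 56.6 CPM with KB02 and 591, 571 and 487 CPM with KB05. KB02 libraries lay just above DMSO and KB05 libraries about 10 times above KB02, a difference of 3.32 ± 0.08 (SE; adjusted p = 4.82e-23). EGR3, a zinc-finger factor downstream of EGR1, differed by 2.46 ± 0.10, from 9.57 ± 0.514 to 52.7 ± 3.01 CPM (mean ± SD, n = 3). ARC, a synaptic immediate-early protein and EGR target, differed by 2.31 ± 0.10. EGR1 itself rose from DMSO with both compounds, by 4.01 and 4.89, and was 0.89 ± 0.12 higher with KB05. The NR4A family members NR4A2 (1.06 ± 0.12) and NR4A3 (0.46 ± 0.17) and the serum response factor SRF (0.57 ± 0.07) followed in the same direction with smaller differences.

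AP-1 subunits split by member. FOSL1, a FOS relative that accumulates with sustained MAP kinase signalling, was at 1.01, 1.91 and 1.64 CPM with DMSO, 1.72, 1.17 and 1.72 CPM with KB02 and 7.76, 9.56 and 7.3 CPM with KB05. KB02 and DMSO libraries overlapped while KB05 libraries lay above both (2.41 ± 0.23, adjusted p = 5.62e-10). FOSB, by contrast, was at 354, 343 and 359.7 CPM with KB02 and 169.7, 149 and 137 CPM with KB05 from 19.5 to 22.7 CPM in DMSO, so it rose with both and less with KB05 (-1.21 ± 0.08). JUN (0.60 ± 0.07) and FOSL2 (0.74 ± 0.08) were higher with KB05, and for FOS no difference was called. Of 12 AP-1 factors 5 were higher (41.7%, against 21.8% of all genes) and 2 lower (16.7%, against 18.2%). The KLF factors KLF4 (1.71 ± 0.10) and KLF6 (1.58 ± 0.10), epithelial growth regulators that are also immediate-early genes, were raised from DMSO by KB05 (1.56 and 1.38) and were not called with KB02 (-0.15 and -0.21). MYC fell from DMSO with both compounds (log2 fold changes of -2.63 and -1.88) and was 0.75 ± 0.09 higher with KB05.

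Feedback inhibitors of the MAP kinase pathway moved with these factors in part. DUSP4, a nuclear phosphatase of ERK, was at 24, 22.8 and 25 CPM with DMSO, 17, 14.3 and 15.2 CPM with KB02 and 102, 94.8 and 79.3 CPM with KB05. KB02 libraries were all below DMSO and KB05 libraries all above it, a difference of 2.57 ± 0.09 (SE; adjusted p = 5.83e-19). SPRY1, an inhibitor of receptor tyrosine kinase signalling, had the same order (1.79 ± 0.18). DUSP1 (1.31 ± 0.07) and DUSP6 (0.95 ± 0.08), which act on stress kinases and ERK, rose with both compounds and more with KB05. SPRED3 (-0.82 ± 0.24) and SPRED2 (-0.33 ± 0.08) were lower. In all 8 of 17 such genes were higher (47.1%, against 21.8% of all genes) and 4 lower (23.5%, against 18.2%). Their median of 0.008 turned sign under other settings.

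Metallothioneins and zinc transporters were lowered by KB02, and most were not called different from DMSO with KB05. Of 12 genes measured, 11 were higher with KB05 (91.7%, against 21.8% of all genes) and 1 lower (8.33%, against 18.2%). The median of 1.434 was the highest of the lists examined. Against DMSO, 10 of the 12 were called lower with KB02, while with KB05 3 were called higher and 1 lower. MT2A, the most abundant of these zinc-binding proteins (ENSG00000125148.7, chromosome 16, 56608199 to 56609497), was at 265, 268 and 263 CPM with DMSO, 104, 128 and 147 CPM with KB02 and 381, 389 and 369 CPM with KB05. Each KB02 library was below each DMSO library and each KB05 library above (1.59 ± 0.09, adjusted p = 6.89e-13). MT1X (1.44 ± 0.09), MT1E (1.43 ± 0.09), MT1F (1.61 ± 0.24) and MT1G (1.18 ± 0.10) share most of their sequence, so the division of reads among them is uncertain. SLC30A1, the zinc exporter of the plasma membrane, was at 89.4, 85.7 and 84.3 CPM with DMSO, 31.7, 33.6 and 29.8 CPM with KB02 and 122, 108 and 87.4 CPM with KB05. KB02 libraries lay below all others, and a KB05 library overlapped with DMSO (1.74 ± 0.09, adjusted p = 5.8e-13). SLC30A2, a vesicular zinc transporter, was at 0.450 to 0.831 CPM with KB02 and 3.1 to 7.4 CPM with KB05 (2.95 ± 0.30). The member that was lower with KB05 was MTF1, the zinc-sensing factor itself, at 31.8, 31 and 29.6 CPM with KB02 and 19.4, 16.8 and 18.5 CPM with KB05 (-0.75 ± 0.09), both above DMSO.

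Replication-dependent histone genes that passed the filter on low counts were mostly higher with KB05. Of 66 listed, 45 passed it. Of these 45, 36 were higher (80%, against 21.8% of all genes) and none was lower (against 18.2%), with a median of 1.384. Low copies can have passed the filter through the KB05 libraries alone. The shares and the median of this list are therefore descriptions and support nothing further. Of the 36, 30 were at least 2-fold higher, a size called for 4.11% of all genes. These genes are intronless, make most of the histone protein of S phase, and their transcripts normally end in a stem-loop without a poly(A) tail. They took 0.027 to 0.0284% of all counts with KB02, 0.0513 to 0.0547% with KB05 and 0.0232 to 0.0234% with DMSO. H3C14, which encodes histone H3 (ENSG00000203811.1, chromosome 1, 149839538 to 149841193), was at 2.12, 3.2 and 2.13 CPM with DMSO, 9.14, 8.65 and 8.26 CPM with KB02 and 54.5, 54.9 and 56 CPM with KB05. The 3 groups stood apart in the order DMSO, KB02, KB05, with a difference of 2.66 ± 0.11 (SE; adjusted p = 1.9e-18) between the compounds. H2BC8 was at 1.12, 0.540 and 0.388 CPM with KB02 and 9.12, 6.24 and 7.24 CPM with KB05 (3.42 ± 0.29, adjusted p = 5.19e-11) and H4C5 at 1.59, 1.53 and 0.998 CPM with KB02 and 11.9, 9.04 and 10.1 CPM with KB05 (2.89 ± 0.21), both low in every group. Histone genes are near-identical copies within each class, so the value of a single copy is less certain than that of the sum. How RNA was selected for the libraries is not stated in the sources used here, so a change in polyadenylated histone transcripts cannot be told apart from a change in all of them. Of 33 genes of DNA replication, which runs in the same phase of the cell cycle, 12 were higher (36.4%) and 4 lower (12.1%). Their median of 0.111 turned sign under other settings.

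Histone promoters are shown for the TATA box, the core element at which TBP binds, because it is common in this group. The letters TATAAA, searched on both strands, occurred in 65.1% of 43 matched histone promoters and in 5.96% of all. Among genes at least 2-fold higher with KB05 they occurred in 14.7% of 430 matched promoters, and among those at least 2-fold lower in 12% of 508. The capitals mark TATAAA in the promoters of H3C14 (chr1:149841209-149841458, minus strand), H2BC8 (chr6:26216689-26216938, minus strand) and CCN2 (chr6:131951373-131951622, minus strand), a gene described next. The match begins 28 bases before the start in H3C14 and 32 bases before it in H2BC8 and CCN2.
H3C14: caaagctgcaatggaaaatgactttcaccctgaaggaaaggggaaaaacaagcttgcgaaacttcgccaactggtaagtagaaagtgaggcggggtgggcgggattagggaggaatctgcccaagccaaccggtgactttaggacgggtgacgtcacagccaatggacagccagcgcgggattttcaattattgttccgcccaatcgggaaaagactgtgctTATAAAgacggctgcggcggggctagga
H2BC8: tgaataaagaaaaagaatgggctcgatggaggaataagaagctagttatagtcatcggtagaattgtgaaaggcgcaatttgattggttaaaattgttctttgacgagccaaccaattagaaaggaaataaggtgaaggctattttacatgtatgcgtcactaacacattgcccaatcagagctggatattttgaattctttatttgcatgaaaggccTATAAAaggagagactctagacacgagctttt
CCN2: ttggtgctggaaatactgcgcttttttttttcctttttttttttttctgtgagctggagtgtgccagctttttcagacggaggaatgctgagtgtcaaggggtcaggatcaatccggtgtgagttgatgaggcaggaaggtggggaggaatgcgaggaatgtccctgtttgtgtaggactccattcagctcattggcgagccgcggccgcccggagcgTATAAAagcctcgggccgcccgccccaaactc

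Several single genes of secreted and growth-control proteins were higher with KB05. CCN2, a matricellular protein and standard target of YAP and TEAD (ENSG00000118523.6, chromosome 6, 131948176 to 131951373), was at 30.1, 25.9 and 22.9 CPM with DMSO, 7.63, 6.26 and 4.88 CPM with KB02 and 57.1, 57.5 and 46.8 CPM with KB05. The 3 groups did not overlap, with KB02 lowest and KB05 highest (3.09 ± 0.14, adjusted p = 1.58e-11). CCN1, its relative, was at 34, 34.5 and 30.5 CPM with KB02 and 160.0, 166 and 163 CPM with KB05 (2.30 ± 0.08) and rose from DMSO with both. Of the 16 YAP and TEAD targets measured 5 were higher (31.2%, against 21.8% of all genes) and 2 lower (12.5%, against 18.2%). GDF15, a stress cytokine of the TGF-beta family, was at 638, 698 and 683 CPM with DMSO, 210.1, 182 and 199.7 CPM with KB02 and 1168, 1084 and 1019 CPM with KB05, again with KB02 lowest and KB05 highest (2.47 ± 0.08, adjusted p = 5.32e-21). FLRT3, a cell adhesion and FGF receptor partner, was at 3.4, 3.33 and 3.16 CPM with KB02 and 33.1, 30.5 and 26 CPM with KB05 against 12.2 to 14.6 CPM in DMSO (3.17 ± 0.13). The vasoconstrictor peptide EDN1 (2.39 ± 0.15), the parathyroid-hormone-like PTHLH (2.20 ± 0.14) and the protease ADAMTS1 (2.20 ± 0.12) shared that order. NGFR, the low-affinity neurotrophin receptor, was at 4.74, 4.41 and 6.87 CPM with KB02 and 33.5, 30.5 and 34.3 CPM with KB05 (2.63 ± 0.14). Among SMAD feedback and ID genes 7 of 13 were higher (53.8%) and 4 lower (30.8%). ID1 (1.57 ± 0.08), ID3 (1.48 ± 0.07) and the BMP pseudoreceptor BAMBI (1.92 ± 0.14) were higher, while the SMAD ubiquitin ligases SMURF2 (-0.83 ± 0.11) and SMURF1 (-0.72 ± 0.08) were lower. Of 15 EGF receptor ligands and growth factors 8 were higher (53.3%) and 2 lower (13.3%). The angiogenic factor VEGFA was at 90.6, 88.7 and 83.3 CPM with KB02 and 178, 161 and 158 CPM with KB05 (0.92 ± 0.07).

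A few of the largest rises were in genes with few counts. IGHE, an immunoglobulin heavy chain constant gene, was at 0.0431, 0.225 and 0.333 CPM with KB02 and 3.65, 5.2 and 6.55 CPM with KB05 and at most 0.0608 CPM with DMSO. The 3 KB02 libraries together held 12 counts, on which the fitted difference of 4.70 ± 0.42 rests. TDRG1 was at 0.388, 0.495 and 0.277 CPM with KB02 and 6.3, 5.33 and 6.55 CPM with KB05 (3.93 ± 0.33), and PARD6G-AS1 at 9.78, 9.64 and 6.98 CPM with KB02 and 44.9, 53 and 71 CPM with KB05 (2.67 ± 0.20). Both are annotated as antisense genes, for which reads of the other strand may be included, since the sources used here do not state strandedness. RRAD, a small GTPase induced by stress, was at 0.360 to 0.554 CPM with KB02 and 2.5 to 4.66 CPM with KB05 (3.01 ± 0.37).

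Endoplasmic reticulum chaperones, epithelial markers and respiratory chain genes formed a further class, in which more members were called lower from DMSO with KB02 than with KB05. Of 29 genes of the endoplasmic reticulum chaperone list, 22 were higher with KB05 (75.9%, against 21.8% of all genes) and none lower (against 18.2%). Their median was 0.391. From DMSO 25 were called lower with KB02 and 21 with KB05. The disulfide isomerase PDIA6 was at 534, 509 and 481 CPM with DMSO, 229.8, 220.2 and 191 CPM with KB02 and 391, 405 and 379 CPM with KB05. KB05 libraries lay between the other groups without overlap (0.87 ± 0.07, adjusted p = 3.84e-11). Calreticulin CALR (0.81 ± 0.07), HSP90B1 (0.60 ± 0.07) and HSPA5, the chaperone BiP (0.45 ± 0.07), had the same order. Among 15 luminal epithelial markers 11 were higher (73.3%) and 1 lower (6.67%), with a median of 0.405. The adhesion protein EPCAM was at 179, 169.9 and 157 CPM with DMSO, 64.4, 66.1 and 55.4 CPM with KB02 and 126, 126 and 136 CPM with KB05, and KB05 again lay between KB02 and DMSO (1.06 ± 0.08, adjusted p = 1.35e-12). The tight junction proteins CLDN7 (1.05 ± 0.07) and CLDN4 (0.89 ± 0.07) were alike, whereas GRHL2, a regulator of epithelial genes, was lower with KB05 (-0.44 ± 0.08).

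Secreted prostate kallikreins were higher with KB05, and nuclear-encoded respiratory chain genes were mostly higher or not called. KLK3 was at 47.3, 52.7 and 54.2 CPM with DMSO, 35.1, 36.4 and 35.7 CPM with KB02 and 65.4, 59.5 and 71.6 CPM with KB05. KB02 libraries fell below DMSO and KB05 libraries rose above it (0.87 ± 0.08, adjusted p = 2.96e-10). KLK2, the neighbouring kallikrein, had the same order (0.75 ± 0.07). Nuclear-encoded respiratory chain genes had 23 of 38 higher (60.5%, against 21.8% of all genes) and none lower (against 18.2%), with a median of 0.239. COX5B, a subunit of cytochrome c oxidase, was at 196, 221 and 227 CPM with KB02 and 345, 346 and 366 CPM with KB05 (0.72 ± 0.07), and the succinate dehydrogenase subunit SDHC differed by 0.70 ± 0.10. Of 13 mitochondrially encoded proteins, by contrast, 2 were higher (15.4%) and 4 lower (30.8%), among them MT-ND1 (-0.48 ± 0.08). Mitochondrial ribosomal proteins had 35 of 78 higher (44.9%) and 1 lower (1.28%), with a median of 0.134.

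**Figure D2:**
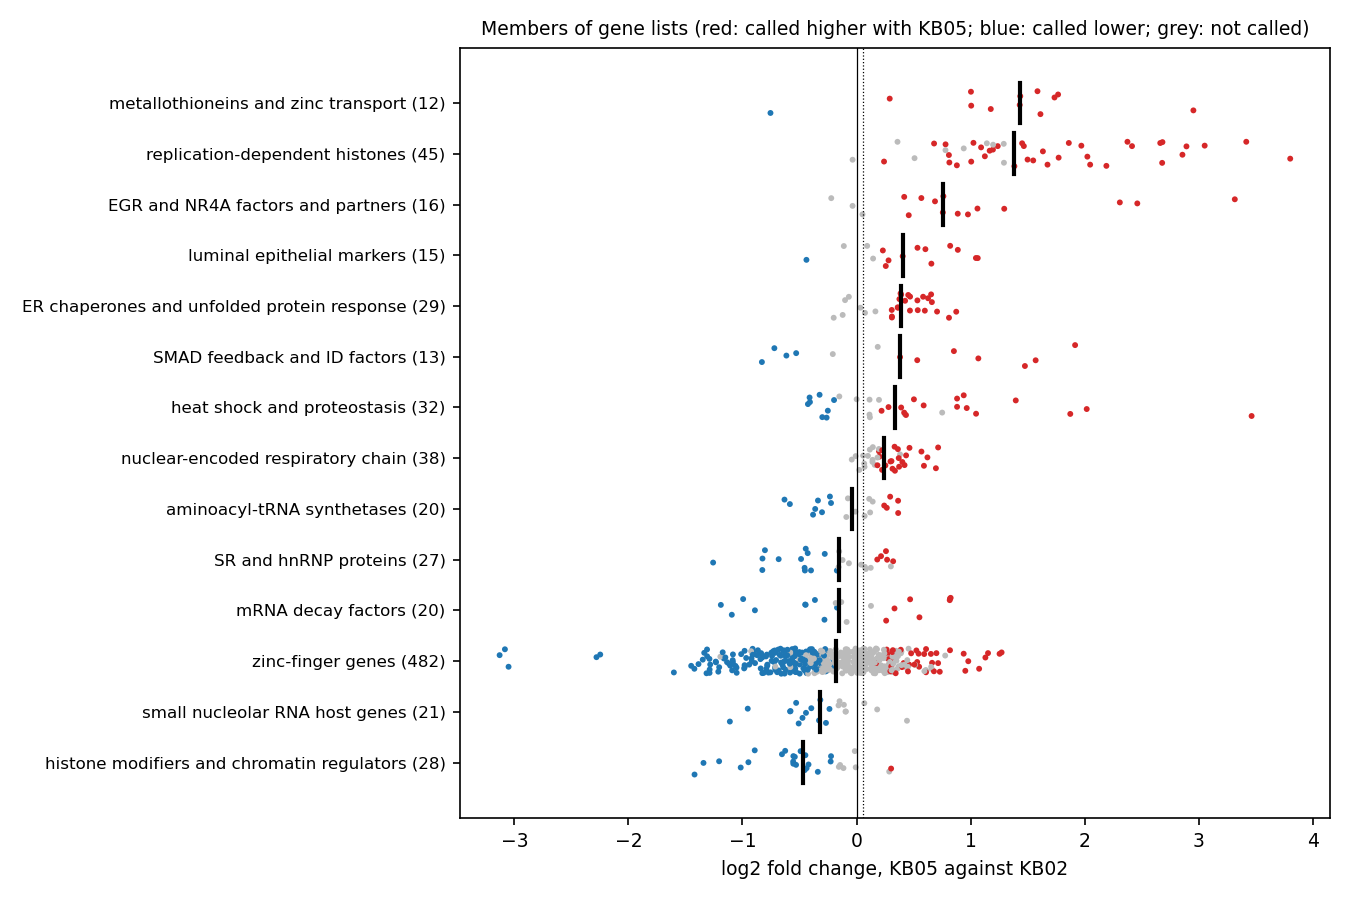
Log2 fold change of KB05 over KB02 for the members of 14 gene lists, with the number of genes tested in brackets; points are genes (vertical spread is for display only), thick bars list medians, the solid line 0 and the dotted line the median of all genes tested (0.056). Metallothioneins and histones lie furthest right (medians 1.434 and 1.384) and histone modifiers furthest left (-0.472). Low histone genes can have passed the count filter through the KB05 libraries alone.

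The largest differences toward KB02 came from genes that were low in DMSO and rose with KB02. All 15 genes named for the largest falls had a DMSO mean under 5 CPM, 14 were called higher with KB02 than with DMSO, and none was called higher with KB05. AOC3, a vascular amine oxidase (ENSG00000131471.7, chromosome 17, 42851184 to 42858130), was at 2.01, 1.29 and 2.01 CPM with DMSO, 28.4, 22.2 and 25 CPM with KB02 and 0.313, 0.845 and 0.460 CPM with KB05. KB02 libraries stood apart from both other groups, and KB05 libraries were below DMSO (-5.58 ± 0.22, adjusted p = 3.66e-18). C1S, a complement protease, was at 14.1, 9.82 and 5.82 CPM with KB02 and 0.417, 0.130 and 0.230 CPM with KB05 (-5.18 ± 0.42). CHRNA10, a subunit of nicotinic acetylcholine receptors, was at 3.18, 2.58 and 2.13 CPM with DMSO, 17.5, 15 and 18.8 CPM with KB02 and 0.625, 0.650 and 0.690 CPM with KB05, and here too KB05 lay below DMSO (-4.69 ± 0.21, adjusted p = 1.9e-17). CD14, the monocyte co-receptor for lipopolysaccharide, was at 11.8, 7.57 and 7.04 CPM with KB02 and 0.104, 0.455 and 0.632 CPM with KB05 (-4.49 ± 0.38). CD14 is also the marker of another cell type that was lower, while 4 of those 13 markers were higher, among them the macrophage protein CD68 (1.77 ± 0.27). What part other cells have was not tested. Muscle glycogen phosphorylase PYGM was at 9.91, 8.02 and 8.37 CPM with KB02 and 0.417, 0.455 and 0.345 CPM with KB05 (-4.42 ± 0.31). IKZF4, a lymphoid zinc-finger factor, was at 2.75, 1.65 and 1.88 CPM with DMSO, 21.1, 20.3 and 19.4 CPM with KB02 and 1.72, 1.89 and 1.09 CPM with KB05, and the KB05 and DMSO libraries overlapped (-3.69 ± 0.18, adjusted p = 3.26e-16). The voltage-gated channel KCND1 (-4.17 ± 0.29), the transglutaminase TGM1 (-3.71 ± 0.34), the mitochondrial carrier UCP3 (-3.56 ± 0.29), the methyltransferase NNMT (-3.46 ± 0.30), the receptor GPR83 (-3.40 ± 0.33) and THSD1 (-3.31 ± 0.22) were also higher with KB02 than in either other group. Of these 6, KCND1 and TGM1 were called lower than DMSO with KB05, and the other 4 were not called between KB05 and DMSO. SFT2D3 also met the rule for the largest falls (-4.85 ± 1.48, adjusted p = 0.042), but it was at 5.65, 3.74 and 2.88 CPM with KB02 and 0, 0.455 and 0 CPM with KB05, and its call was lost in 10 of 17 alternative settings (adjusted p of 0.0904 with the replicate number as a block and 0.0512 with DESeq2). Genes this low can pass the count filter through the KB02 libraries alone, so their number is not a measure of how common the pattern is.

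Many of these genes lie within 10 kb downstream of an expressed gene on the same strand, a description added after the values were seen. An expressed neighbour had a mean of at least 10 CPM over the KB02 and KB05 libraries. Its end lies within 10 kb before the start of the gene, or overlaps it, in GENCODE release 29. Genes below that level in between were passed over, so the neighbour need not be the adjacent gene. Such a neighbour was present for 34.6% of the genes at least 2-fold lower with KB05 (320 of 925 with a position), for 7.79% of those at least 2-fold higher and for 16.8% of all genes tested. Counting only neighbours with a symbol, it was present for 13 of the 15 genes named for the largest falls and for 2 of the 15 named for the largest rises. H3C14, also among those rises, begins 995 bases after an expressed gene without a symbol. Of the 925 genes 701 were under 10 CPM in DMSO and could have passed the count filter through the KB02 libraries, so these shares describe genes chosen by the difference and support nothing further. AOC3 begins 7426 bases after PSME3, a proteasome activator at 93.5 ± 11.2 CPM with KB02 and 96.8 ± 5.01 CPM with KB05, which differed by 0.05 ± 0.08. CD14 begins 5039 bases after NDUFA2 (0.20 ± 0.08, not called), PYGM 4309 bases after the splicing factor SF1 (-0.24 ± 0.07, called) and IKZF4 1018 bases after SUOX (0.06 ± 0.07, not called). Other upstream genes differed more, among them EMG1 at C1S (0.43 ± 0.07, called higher), JUND before IQCN (0.50 ± 0.18, not called) and GTPBP4 before IDI2-AS1 (-0.27 ± 0.09, called lower). CHRNA10 lies at NUP98, a nucleoporin gene that was itself lower with KB05 (a log2 fold change of -1.0 ± 0.08). What part the neighbours have in these levels was not tested, and reads that overlapping genes share are divided by estimate.

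Tested genes with a position were then split by level in DMSO and by neighbour, also after the values were seen. Those under 10 CPM in DMSO with an expressed neighbour upstream (1415 genes) had a median log2 fold change of -0.229 between the compounds. Of them 6.78% were called higher and 26.8% lower. The 7208 genes under 10 CPM without such a neighbour had a median of 0.104, with 15.4% higher and 11.5% lower. Per library, the median of the first set against DMSO was 0.141, 0.132 and 0.222 with KB02 and -0.031, -0.075 and -0.028 with KB05. All KB02 libraries lay above all DMSO libraries (-0.033 to 0.009), and KB05 libraries did not. Among genes of 10 CPM or more in DMSO, the median difference was 0.035 with an expressed neighbour and 0.056 without. Genes under 10 CPM in DMSO can have passed the count filter through the KB02 or KB05 libraries alone. The medians and shares of the low sets are therefore descriptions and support nothing further.

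**Figure D3:**
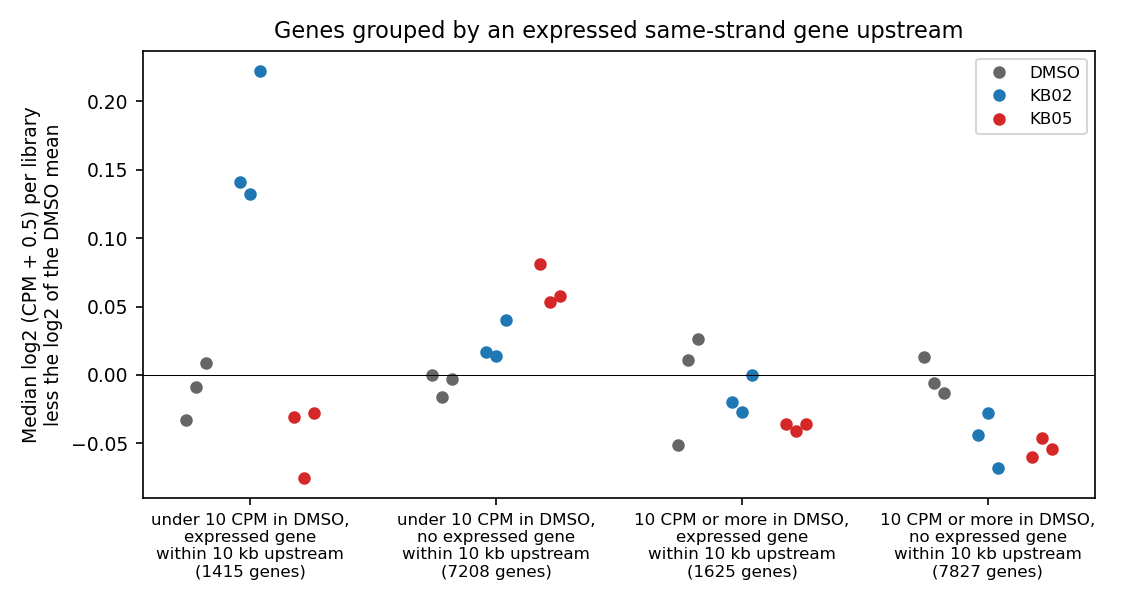
Median over genes of log2(CPM + 0.5) in each library less the log2 of the DMSO mean, for 4 sets of genes split by level in DMSO and by an expressed same-strand gene within 10 kb upstream; points are the 9 libraries. In the low genes with such a neighbour the KB02 libraries lie at 0.132 to 0.222 and the KB05 libraries at -0.075 to -0.028. Low genes can have passed the count filter through the KB02 or KB05 libraries alone.

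Among genes of higher expression that were lower with KB05 were NXF1, CLK1 and several SR proteins. NXF1, the main export receptor of messenger RNA (ENSG00000162231.14, chromosome 11, 62792123 to 62806302), was at 103, 109.9 and 122 CPM with DMSO, 882, 721 and 733 CPM with KB02 and 102, 99.9 and 103 CPM with KB05. It rose in every KB02 library, while KB05 and DMSO libraries overlapped (-2.94 ± 0.08, adjusted p = 1.74e-21). CLK1, a kinase of SR splicing factors whose own transcript is regulated by splicing, was at 74.3, 73.2 and 81.2 CPM with DMSO, 205, 196 and 181 CPM with KB02 and 53.8, 56.2 and 61.7 CPM with KB05. KB02 lay above DMSO and KB05 below it (-1.76 ± 0.07, adjusted p = 9.51e-18). CLK2 (-1.19 ± 0.07), CLK4 (-0.72 ± 0.15) and CLK3 (-0.41 ± 0.08) were lower with KB05 as well, whereas the related kinases DYRK3 (1.53 ± 0.33), DYRK2 (0.37 ± 0.10) and DYRK1B (0.29 ± 0.12) were higher. Of the 13 splicing kinases measured 5 were lower (38.5%, against 18.2% of all genes), 3 higher (23.1%, against 21.8%) and 5 not called, with a median of -0.059. Of 27 SR and hnRNP proteins 13 were lower (48.1%) and 5 higher (18.5%), with a median of -0.157. TRA2A, a splicing activator, was at 149, 142 and 147 CPM with KB02 and 58.5, 64.2 and 60.5 CPM with KB05 (-1.26 ± 0.07, adjusted p = 3.34e-15), and TRA2B (-0.82 ± 0.07), SRSF11 (-0.83 ± 0.07) and SRSF2 (-0.80 ± 0.07) followed, while HNRNPU (0.32 ± 0.07) and HNRNPD (0.27 ± 0.07) were higher. SF3B1, the branch-site factor of the U2 particle, was at 235, 206 and 212 CPM with KB02 and 111, 115 and 111 CPM with KB05 (-0.96 ± 0.07). Of the 11 subunits and partners of its complex 4 were higher (36.4%) and 2 lower (18.2%, the same share as of all genes).

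Histone modifiers and chromatin regulators had the lowest median of the lists examined. Of 28 genes 21 were lower with KB05 (75%, against 18.2% of all genes) and 1 higher (3.57%, against 21.8%), with a median of -0.472. EP300, a histone acetyltransferase and coactivator (ENSG00000100393.14, chromosome 22, 41091786 to 41180079), was at 68.9, 71.1 and 64.4 CPM with DMSO, 127, 123 and 118 CPM with KB02 and 49, 44.5 and 43.8 CPM with KB05. KB02 libraries all exceeded DMSO and KB05 libraries all fell below it (-1.42 ± 0.07, adjusted p = 8.46e-16). The histone methyltransferases SETD1B (-1.34 ± 0.07), SETD1A (-1.21 ± 0.08) and KMT2D (-0.89 ± 0.08) and the acetyltransferase CREBBP (-0.95 ± 0.08) had the same order, as did EZH2 (-0.55 ± 0.07). The exception was SMARCA4, the ATPase of SWI/SNF complexes (0.30 ± 0.07). Among elongation factors 9 of 19 were lower (47.4%) and 7 higher (36.8%). BRD2, a reader of acetylated histones, was at 228, 231 and 238 CPM with DMSO, 571, 533 and 558 CPM with KB02 and 249.7, 246 and 245 CPM with KB05, with KB05 near DMSO (-1.17 ± 0.07, adjusted p = 6.25e-15). HEXIM1, the inhibitor of the elongation kinase P-TEFb, differed by -0.87 ± 0.07, and the cyclin CCNT2 by -1.30 ± 0.09. The kinase CDK9 itself was 0.22 ± 0.08 higher with KB05. Of 20 mRNA decay factors 9 were lower (45%) and 7 higher (35%). The exonuclease XRN1 (-1.09 ± 0.11), the deadenylase subunit PAN3 (-1.19 ± 0.10) and the scaffold CNOT1 (-0.99 ± 0.08) were lower, and the AU-rich element binder ZFP36 (0.82 ± 0.07) and the antiproliferative factor BTG1 (0.83 ± 0.07) were higher.

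Zinc-finger genes and small nucleolar RNA host genes were lower with KB05 more often than higher. Of 482 zinc-finger genes with a ZNF symbol, 172 were lower (35.7%, against 18.2% of all genes) and 43 higher (8.92%, against 21.8%), with a median of -0.181. From DMSO, 226 were called higher and 55 lower with KB02 (median 0.305). With KB05, 147 were called higher than DMSO and 75 lower (median 0.109). ZNF547 was at 2.65, 3.05 and 4.01 CPM with DMSO, 27, 24.7 and 19.5 CPM with KB02 and 3.02, 2.34 and 2.99 CPM with KB05. KB02 libraries stood apart, and KB05 and DMSO overlapped (-3.08 ± 0.16, adjusted p = 1.75e-15). ZNF761 was at 42.8, 35.3 and 38.5 CPM with KB02 and 6.77, 7.93 and 9.89 CPM with KB05 against 12.3 to 13.9 CPM in DMSO (-2.25 ± 0.12). Many of these genes sit in clusters of similar copies, so single members carry added uncertainty. Of 21 small nucleolar RNA host genes 13 were lower (61.9%) and none higher (median -0.317). Among the lower ones were SNHG17, at 108, 111 and 122 CPM with KB02 and 53.2, 51.4 and 52.9 CPM with KB05 (-1.11 ± 0.07), and SNHG12 (-0.95 ± 0.09). Clock genes had 8 of 18 lower (44.4%) and 1 higher (5.56%). The repressor PER1 was at 182, 166 and 175 CPM with KB02 and 74.3, 68.3 and 61.3 CPM with KB05 (-1.36 ± 0.09), the activator BMAL1 differed by -1.33 ± 0.18, and the repressor BHLHE41 was higher (1.52 ± 0.20). SOCS1, an inhibitor of cytokine receptors, rose with both compounds and was at 47.4, 49.7 and 49.8 CPM with KB02 and 21.6, 16.8 and 18.9 CPM with KB05 (-1.35 ± 0.11). SNAI1, a repressor of E-cadherin, did the same (-1.17 ± 0.14).

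In 512 genes the compounds acted in opposite directions from DMSO, meaning that both changes from DMSO and the difference between compounds were called. For 402 genes (2.19% of those tested) KB02 was above and KB05 below DMSO, and for 110 (0.599%) the reverse held. In 379 of the 402 and 93 of the 110 the 3 groups of libraries did not overlap at all. This follows largely from choosing the genes by these calls and is no separate support. Between KB05 and KB02 alone, 50.3% of all genes tested had no overlap, and the share for all 3 groups was not counted. The changes were mostly modest. In the larger set the median log2 fold change from DMSO was 0.513 with KB02 and -0.492 with KB05, and in the smaller set it was -0.608 and 0.549. With each change from DMSO at least 1.5-fold, 95 and 39 genes were left. The smaller set fell to 63 genes without DMSO replicate 2 and to 71 with library size scaling alone.

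Among the genes raised by KB02 and lowered by KB05, CTSK, a lysosomal cysteine protease, was at 4.92, 2.99 and 3.47 CPM with DMSO, 15.3, 12.4 and 14.1 CPM with KB02 and 1.41, 1.69 and 1.32 CPM with KB05 (-3.24 ± 0.19, adjusted p = 2.89e-14). LTB4R, the leukotriene B4 receptor, was at 6.97 ± 1.57 CPM with DMSO, 18.9 ± 4.83 CPM with KB02 and 2.34 ± 0.793 CPM with KB05 (SD, n = 3; -3.01 ± 0.28, adjusted p = 6.15e-06). In both, every KB02 library was above and every KB05 library below the DMSO libraries. CRYGS, a lens crystallin (-3.22 ± 0.22), IQCN, a sperm protein (-3.83 ± 0.18), and the antisense transcripts IDI2-AS1 (-3.36 ± 0.30) and CACTIN-AS1 (-3.13 ± 0.23) belong to the same set, as do AOC3, CHRNA10, KCND1 and TGM1. So do 6 of the 28 histone modifiers (CREBBP, EP300, EZH2, KMT2D, SETD1A and SETD1B), 4 of the 27 SR and hnRNP proteins (SRSF1, SRSF2, TRA2A and TRA2B) and the checkpoint kinase ATR (-1.15 ± 0.11). No histone, heat shock or AP-1 gene was in it.

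Among the genes raised by KB05 and lowered by KB02, besides CCN2, FLRT3, DUSP4, GDF15, EDN1, PTHLH and ADAMTS1, were NPY1R, a neuropeptide Y receptor, at 0.948, 1.22 and 0.942 CPM with KB02 and 6.1, 6.44 and 5.35 CPM with KB05 (2.51 ± 0.27), FIGNL2 (2.27 ± 0.19) and the antisense transcript TFAP2A-AS1 (2.18 ± 0.32). The set also held MT2A and SLC30A1, ID1 and BAMBI, SPRY1, KLK2, KLK3 and KRT8. KRT8 changed little in either direction, being at 995, 907 and 894 CPM with KB02 and 1219, 1232 and 1253 CPM with KB05 against 942 to 1156 CPM in DMSO.

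**Figure D4:**
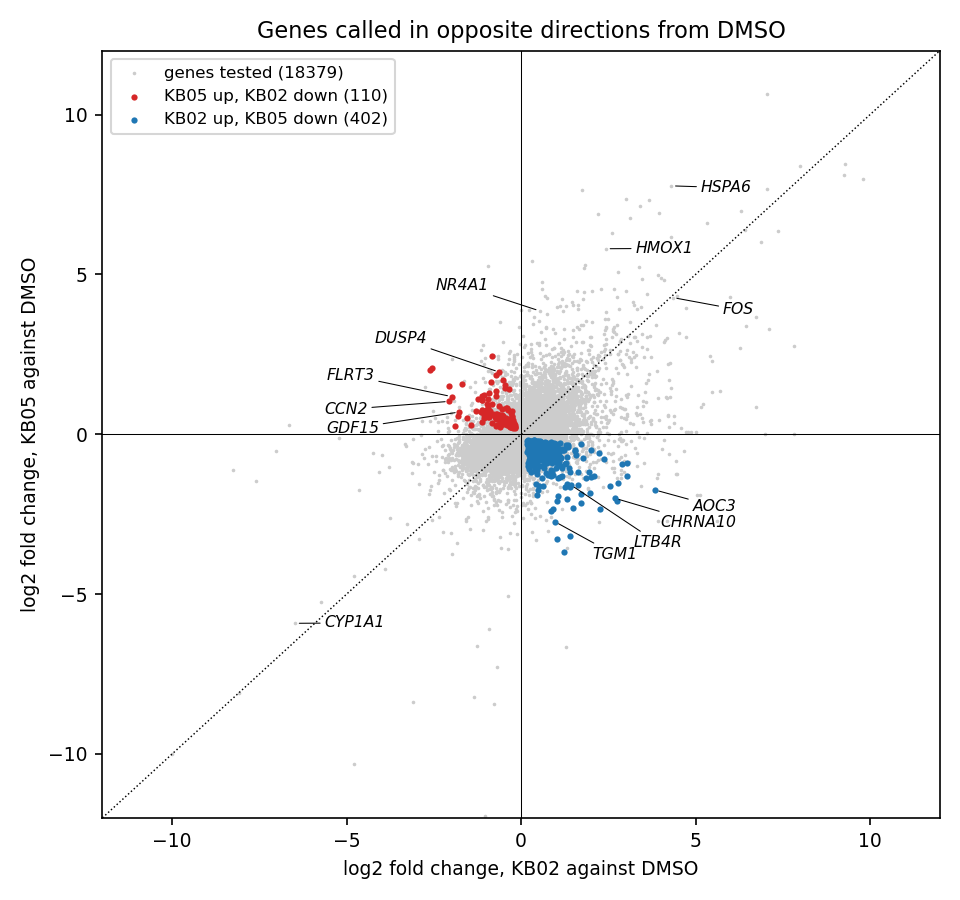
Log2 fold change from DMSO with KB02 (horizontal) and KB05 (vertical) for 18379 genes; coloured points are called in opposite directions, 402 with KB02 above DMSO and 110 with KB05 above DMSO, and the dotted line marks equal change. The axes share the DMSO libraries, so the spread along the dotted line is not a measure of likeness; HSPA6 and HMOX1 lie above the line and CYP1A1 near it.

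Differences between the compounds ran with the size of the gene, another description added after the values were seen. Over 10693 protein-coding genes with a mean of at least 5 CPM, the median log2 fold change of KB05 over KB02 was 0.210 for genes of 2 to 3 exons (44.9% higher, 14.2% lower) and -0.327 for genes of over 30 exons (8.38% higher, 58.1% lower). For genes of 1 exon it was 0.130. By span it was 0.192 up to 5 kb and -0.133 over 200 kb. Genes over 200 kb had a median against DMSO of 0.127 with KB02 and -0.070 with KB05. Against DMSO the median of genes over 30 exons was 0.032 with KB02 and -0.355 with KB05, and per library it was 0.042, 0.013 and 0.020 with KB02 and -0.313, -0.381 and -0.375 with KB05. The median of these 489 genes was therefore lower in every KB05 library than in every KB02 and DMSO library. Across genes, Spearman's rho between the log2 fold change and exon number was -0.292, and with span it was -0.237. Genes share libraries and scaling, and length also enters the estimation of counts, so these values are descriptions.

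The sets moved in opposite directions are described by the same features. Protein-coding genes raised by KB02 and lowered by KB05 had a median of 19 exons and 64.9 kb, those raised by KB05 and lowered by KB02 had 5 exons and 10.2 kb, and all protein-coding genes tested had 9 exons and 31.7 kb. Of the protein-coding genes at least 2-fold higher with KB05, 13.2% (62 of 469) had a single exon, against 2.08% of all protein-coding genes tested, which the histone genes contribute to. TATAAA occurred in 15.7% of 83 matched promoters of the set raised by KB05 and in 6.69% of 299 of the set raised by KB02.

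**Figure D5:**
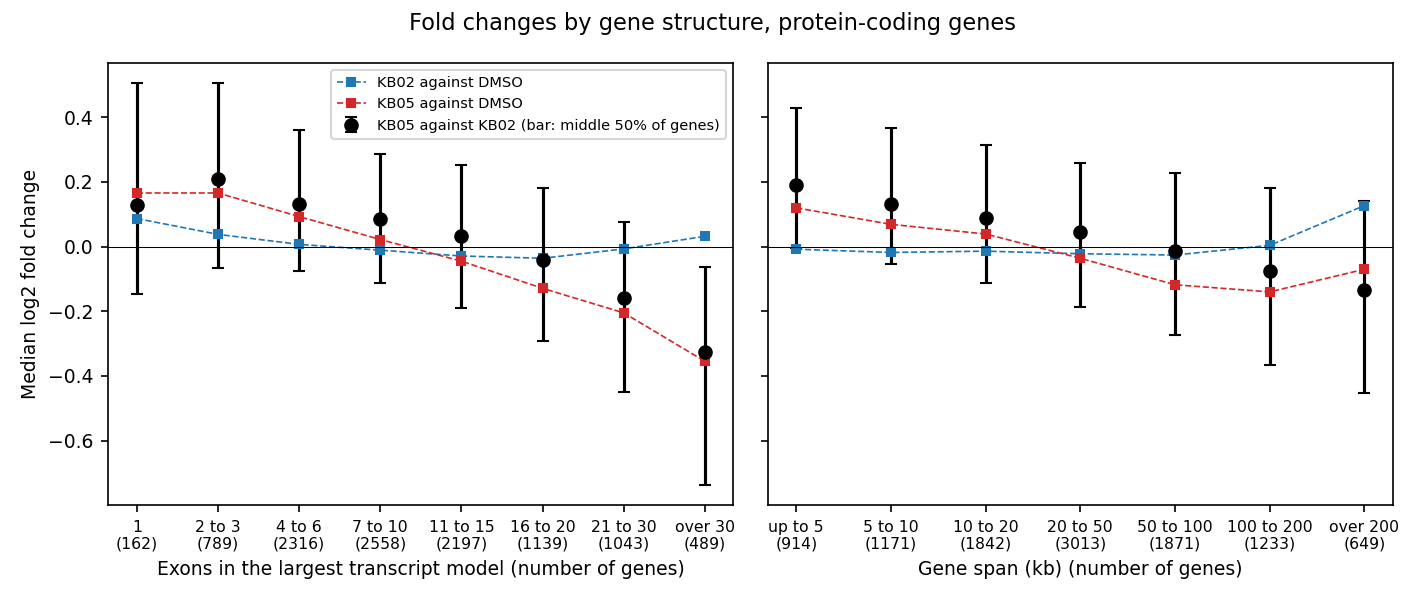
Median log2 fold change of protein-coding genes in bins of exon number (left) and gene span (right), with the number of genes in each bin; black points compare KB05 with KB02 (bars span the middle 50% of genes) and squares compare each compound with DMSO. From 2 to 3 exons to over 30 exons the black medians run from 0.210 to -0.327, and those of KB05 against DMSO from 0.166 to -0.355.

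For many genes the compounds could not be told apart, and for part of them the data bound the difference. Of the 11033 genes not called, 5661 (51.3%) had a 95% interval within 1.5-fold in either direction and 7878 (71.4%) within 2-fold. Some strong responses were in this class. FOS, the AP-1 subunit that answers growth signals first, was at 26.6, 20.7 and 28.2 CPM with DMSO, 523, 514 and 496 CPM with KB02 and 485, 501 and 475 CPM with KB05. FOS rose by 4.35 with KB02 and 4.28 with KB05 on the log2 scale, and the difference of -0.07 ± 0.08 had an interval of -0.22 to 0.09 (adjusted p = 0.512). IER2, an immediate-early regulator, was at 1622, 1677 and 2004 CPM with KB02 and 1925, 1808 and 1766 CPM with KB05 (0.05 ± 0.08, interval -0.11 to 0.22). CHAC1, which degrades glutathione in the integrated stress response, was at 69.6, 66.1 and 80.5 CPM with KB02 and 82.1, 79.2 and 75.6 CPM with KB05 (0.13 ± 0.09, interval -0.06 to 0.32). ZNF703 (-0.20 to 0.23), EGR2 (-0.48 to 0.03), RASD1 (-0.03 to 0.47) and PPP1R15A (-0.28 to 0.02), the phosphatase subunit that reverses eIF2-alpha phosphorylation, had intervals within 1.5-fold too. With library size scaling FOS, EGR2 and PPP1R15A were called lower with KB05 (adjusted p of 0.0488, 0.0368 and 0.00508). Without KB02 replicate 1, EGR2 (0.0405), PPP1R15A (0.0435) and RASD1 (0.0297) were called, as was PPP1R15A with only the 2 groups compared (0.0246).

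CYP1A1, an aryl hydrocarbon receptor target that oxidises polycyclic aromatic compounds, was lowered strongly by both. It was at 887, 970.0 and 963 CPM with DMSO, 9.35, 10.6 and 11.9 CPM with KB02 and 18, 12.4 and 16.2 CPM with KB05. The compounds differed by 0.56 ± 0.12 (SE; adjusted p = 0.000414), a small part of the fall from DMSO. The related CYP1B1 also fell (log2 fold changes of -4.79 and -4.42) and was not called between compounds (0.36 ± 0.15, adjusted p = 0.0561).

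Further lists are given by their counts, to be read against the 21.8% of all genes that were higher and the 18.2% that were lower. In the integrated stress response 14 of 30 genes were higher with KB05 (46.7%) and 4 lower (13.3%), with a median of 0.173. ATF3 was at 281, 283 and 306 CPM with KB02 and 475, 474 and 456 CPM with KB05 (0.69 ± 0.07) and the amino acid transporter chain SLC3A2 at 812, 749.9 and 816 CPM with KB02 and 1512, 1465 and 1504 CPM with KB05 (0.91 ± 0.07), while ATF4 (-0.47 ± 0.07) and asparagine synthetase ASNS (-0.67 ± 0.07) were lower. Aminoacyl-tRNA synthetases had 5 of 20 higher and 8 lower, with CARS1 lowest (-0.63 ± 0.07). Of 31 proteasome subunits 11 were higher and 10 lower, PSMD12 lowest (-0.77 ± 0.08). In cholesterol and fatty acid synthesis 15 of 33 were higher and 10 lower. The desaturase SCD (0.87 ± 0.08) and the sterol reductase TM7SF2 (0.89 ± 0.07) were higher, and the condensing enzyme HMGCS1 (-0.51 ± 0.07) was lower. Of 27 p53 targets 12 were higher (44.4%) and 3 lower (11.1%), with a median of 0.160, among them GADD45A (0.74 ± 0.07) and GADD45B (-0.87 ± 0.09) on opposite sides. Of 27 mitotic genes 2 were higher and 6 lower, and 19 of the 19 not called were bounded within 1.5-fold. Of 81 cytosolic ribosomal proteins 7 were higher and 4 lower, and 64 of the other 70 were bounded within 1.5-fold. Autophagy genes had 5 of 26 higher and 7 lower, the lowest being ATG14 (-1.16 ± 0.14), RB1CC1 (-1.12 ± 0.10) and ULK1 (-1.05 ± 0.09), which act at the start of the pathway. Ribosome biogenesis factors had 4 of 29 higher and 8 lower, UTP20 lowest (-1.04 ± 0.09).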

How the data were processed

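RNA of 22Rv1 cells was sequenced in 9 libraries (DMSO, KB02 and KB05 at 200 µM, 3 each, 3 h). The deposited file holds estimated counts for each gene, which the authors did not scale to depth. Salmon 1.3.0, DESeq2 1.30.1 and the builds hg38 and GRCh38.p13 are named per the submitters' processing notes. Annotation release and strandedness are not stated in the sources used here. Salmon shares reads among similar transcripts by likelihood, so near-identical or overlapping genes are divided by estimate. Between 20.3% and 24.3% of values were not whole, and all were rounded. Columns were matched to samples by the name in the description label. These names carry a time of 2 h while the sample titles give 3 h. The 2 h were read here as the time in fresh medium. Of 60232 identifiers 60064 matched the name table, 41714 had a symbol and 57997 a position in GENCODE release 29 (GRCh38, counted from 1).

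Testing used edgeR 4.0.16 under R 4.3.3: filterByExpr (minimum count 10), TMM factors and a robust quasi-likelihood model of group over all 9 libraries. Adjusted p-values are two-sided, Benjamini-Hochberg over 18379 genes, and cover 1 pair of compounds. SE is the log2 fold change over the square root of F. Treatments were in biological triplicate per the labels, with no word on separate days, so p-values cover the spread between cultures of 1 line. Chi-square per degree of freedom between replicates was 4.56 to 10.9, so no library repeated another. Counts were also simulated for this comparison (17401 genes), with 50 genes changed at each fold. The changed genes were drawn only from those above 2 CPM in DMSO. At 1.5-fold 74% of the 50 were recovered and at 2-fold 90%, and 0.0814% of unchanged genes were called. In the data themselves 40.0% of genes tested were called. The genes called at least 2-fold had a median DMSO level of 1.35 CPM (higher with KB05) and 1.67 CPM (lower). Whether the simulated rates hold for such low genes, or at that share of calls, was not tested.

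Named genes are the 15 largest differences each way, the 10 largest in each opposite direction, the 3 largest called members of each list, and 8 genes changed at least 3-fold by both but bounded within 1.5-fold between them. They needed a symbol, a mean log2 CPM of 1 or more and groups without overlap. Other members given as examples were chosen after their values were seen. The members, the 51 lists and the rules were chosen with earlier results of these data known, and no set test was run. Alternatives were RLE, upper-quartile and library size scaling, no filter, a minimum count of 50, DESeq2 1.42.0, the 2 groups alone, a replicate block and leaving out each library.

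Promoters are RefSeq sequences (GRCh38.p14) matched by symbol. TGACNNNGC, TGANTCA, TGACGTCA, TGATGNAA and GCGTG were searched as well. In HSPA6 a TGACNNNGC match overlaps a TGANTCA match. HMOX1, AOC3 and MT1F have no entry. Some genes and a list that holds them are not reported here.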

Additional observations from a re-analysis of the deposited data

How the results depend on the processing

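Called genes numbered 6592 to 7518 over the scalings, filters, tests and designs tried, with 6775 by DESeq2 and 7388 with only the 2 groups compared, and 6314 to 7716 when a library was left out. Depth limits the low genes: with a minimum count of 50, 893 genes were called at least 2-fold (358 higher, 535 lower). Genes in opposite directions numbered 594 with library size scaling, 401 to 500 when a library was left out, and 134 (39 raised by KB05, 95 raised by KB02) when each change from DMSO had to reach 1.5-fold. The set raised by KB05 held 71 genes with library size scaling and 63 to 100 when a library was left out, the fewest without DMSO replicate 2. The share of calls higher with KB05 was 54.4% with TMM, 50.2% with RLE, 51.3% with upper-quartile factors, 50.1% with DESeq2, 37.4% with library size alone, and 47% to 54.9% when a library was left out. The labels do not say whether replicate numbers stand for shared batches. Deviations of same-numbered libraries correlated at -0.076 to 0.165 and of others at -0.218 to 0.104. These ranges overlap and rest on few libraries, so they do not decide the question. With the replicate block 7518 genes were called (4119 higher, 3399 lower).

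Of 3161 values of 186 named genes under the alternatives, 3088 kept direction and call, 53 lost the call, 7 gained it and 13 changed sign. The sign changes were in genes with no called difference. IER2 was -0.061 with library size scaling and -0.057 and -0.033 without KB02 replicate 1 or 2 (-0.057 to 0.150 over the fits without a library). ZNF703 was -0.012 with RLE, -0.005 with upper-quartile factors, -0.099 with library size, -0.012 with DESeq2 and -0.023 with 2 groups, and -0.073 to 0.097 over the fits without a library (-0.031, -0.026, -0.022 and -0.009 in the others that turned it). List medians that changed sign were those of DNA replication, G1/S cyclins, LINC genes, MAP kinase feedback, NRF2 targets, DNA repair, cytosolic ribosomal proteins, interferon genes and the proteasome. The median of genes over 30 exons ranged from -0.442 to -0.319, of genes up to 3 exons from 0.086 to 0.217, and of low genes with an expressed neighbour upstream from -0.34 to -0.178. The cause of these shifts was not tested.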
